A study of Mus musculus with 12 samples.

Results

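The T cell receptor and thymocyte genes described here are 10 genes chosen by name: Cd3e, Cd3g, Cd247, Cd4, Cd8b1, Lck, Rag1, Dntt, Ptcra and Themis. The platform annotation used here gave at least 1 probe set with a single gene symbol to 9 of them, out of 18193 genes measured in this way, and Lck, a kinase that starts T cell receptor signalling, has no value here. For each gene the probe set with the highest mean over 12 arrays was used. RNA came from lung tissue of wild-type mice in 4 groups of 3 arrays. The combined group received 25 Gy once and simvastatin, a drug that blocks cholesterol synthesis, at 10 mg/kg by repeated intraperitoneal injection, and was taken 6 weeks after irradiation. The radiation group received 25 Gy alone and was taken at the same time. The simvastatin group received the injections for up to 6 weeks with no radiation in its label. The control group received vehicle, and no time point was given for it. The labels give ages of 8 to 12 weeks in the combined, radiation and simvastatin groups and 8 to 10 weeks in controls. In comparisons with control the age range, any difference in time point and the treatment thus cannot be told apart. By its title the study concerns simvastatin in lung injury after radiation.

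T cells recognise antigen through a receptor whose variable chains sit in the membrane with the CD3 chains. Cd3e and Cd3g encode a pair of these chains, and Cd247 encodes the zeta chain, which carries most of the signalling tail. CD4 and CD8 are co-receptors for MHC class II and class I, and Cd8b1 encodes the beta chain of CD8. Developing T cells in the thymus cut and join their receptor genes with the recombinase encoded by Rag1 and its partner Rag2, add bases at the joints with the enzyme encoded by Dntt, and test the first rearranged chain with Ptcra, the pre-T cell receptor alpha chain. Themis encodes a signalling protein needed as thymocytes pass selection. Rag1, Dntt and Ptcra are switched off in mature T cells, while the CD3, Cd247 and co-receptor genes stay on. Lungs hold mature T cells, and the thymus lies beside them in the chest.

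The promoters of Rag1, Dntt and Ptcra are shown because these genes mark developing rather than mature T cells and were near the low end of the scale on most arrays below. The windows run from 250 bases before to 50 bases after each gene's start, 5′ to 3′, from RefSeq on GRCm38.p6, and 8 of the 10 genes matched the table, with 10 windows. Capitals mark the E-box CANNTG, the core bound by E proteins, and the RUNX core TGTGGT, each searched on both strands, with overlaps joined into 1 run. The window of Rag1 is chr2:101649483-101649782 on the minus strand, that of Dntt chr19:41029025-41029324 on the plus strand, and that of Ptcra chr17:46763663-46763962 on the minus strand.
Rag1: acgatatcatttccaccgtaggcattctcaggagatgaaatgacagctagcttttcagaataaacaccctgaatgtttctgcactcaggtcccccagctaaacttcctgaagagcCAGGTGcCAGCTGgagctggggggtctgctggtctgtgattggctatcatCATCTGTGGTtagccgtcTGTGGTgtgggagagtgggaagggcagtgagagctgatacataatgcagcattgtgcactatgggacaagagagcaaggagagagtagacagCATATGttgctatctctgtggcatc
Dntt: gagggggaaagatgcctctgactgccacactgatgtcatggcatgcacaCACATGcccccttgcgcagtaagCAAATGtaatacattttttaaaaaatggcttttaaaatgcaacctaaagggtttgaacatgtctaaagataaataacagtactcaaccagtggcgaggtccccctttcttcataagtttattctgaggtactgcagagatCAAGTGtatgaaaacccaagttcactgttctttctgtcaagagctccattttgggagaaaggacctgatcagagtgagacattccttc
Ptcra: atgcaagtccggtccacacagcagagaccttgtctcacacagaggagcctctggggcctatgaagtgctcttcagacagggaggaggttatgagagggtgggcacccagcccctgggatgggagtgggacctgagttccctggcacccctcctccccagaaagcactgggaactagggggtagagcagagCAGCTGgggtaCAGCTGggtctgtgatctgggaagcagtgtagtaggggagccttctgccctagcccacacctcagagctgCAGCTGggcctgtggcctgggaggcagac
An E-box was found in all 10 windows of the 8 matched genes and in 72.3% of all 32851 windows of this length. The 10 windows include 2 of Lck and 2 of Themis, and those of Themis overlap. The 3 E-boxes of Ptcra had the letters cagctg, and the window of Rag1 held 4 E-boxes and 2 RUNX cores, of which 1 overlapped an E-box. RUNX cores were found in 2 of 10 windows (2 of 8 genes), against 16.8% of all windows. The ETS letters AGGAAG, which are not in capitals, were found in 5 of 10 (4 of 8 genes), against 35.4%. A match is a run of letters, and no binding was measured.

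All values are deposited log2 intensities, on which 1 unit is a doubling of signal. Lung identity was shared by all arrays: Sftpc, which encodes surfactant protein C of alveolar type 2 cells, read 15.57 to 15.84, and Scgb1a1, the secretory protein of club cells, 15.80 to 16.20. Some arrays stood against their labels or were near-identical. Cdkn1a, a p53 target that rises after irradiation, read 13.19 and 13.17 on combined 1 and combined 2 but 11.18 on the array labelled combined 3, and 13.12 to 13.42 on the radiation arrays. It read 13.36 on the array labelled simvastatin 2 against 11.09 and 11.11 on the other simvastatin arrays, and 13.01 on the array labelled control 3 against 10.25 and 10.69 on the other controls. Simvastatin 1 and simvastatin 3 differed by less than any pair of arrays outside a near-identical group of 3 (SD of their log2 differences 0.118, against at least 0.336 in 63 other pairs), so their mean counted as 1 sample. The third array of that group was combined 3, kept apart because it has another label, though its SD against simvastatin 1 was 0.111. The n = 3 of the combined group thus counts this array as a separate sample. The fits therefore used 11 samples, with n = 3 per group and n = 2 for simvastatin.

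All 9 measured genes were highest on control 1, and 8 of them were second highest on combined 1. Over all genes, 14.2% were highest on control 1, and the share that was then second highest on combined 1 was not counted. The recombination genes showed the widest gaps. Rag1 read 11.05 on combined 1 and 2.13 and 2.14 on combined 2 and combined 3. It read 2.18, 2.33 and 2.11 on the radiation arrays and 2.14, 2.10 and 2.16 on the simvastatin arrays. Among controls it read 14.42 on control 1, 2.09 on control 2 and 2.15 on control 3. The gene was thus near the low end of the scale on 10 of 12 arrays, where its values lay within 0.23 of each other and under the 25th percentile of all values, 2.37.

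Dntt, whose enzyme adds bases at receptor joints, read 9.35, 2.15 and 2.17 on the combined arrays, 2.18, 2.24 and 2.16 on the radiation arrays and 2.16, 2.14 and 2.18 on the simvastatin arrays. On the controls it read 13.10, 2.15 and 2.16. Only control 1 and combined 1 stood above the low end, and the groups otherwise overlapped. Themis, the signalling gene of thymocyte selection, read 7.17, 2.66 and 2.67 on the combined arrays, 2.56 to 2.73 on the radiation arrays, 2.64 to 2.68 on the simvastatin arrays, and 11.69, 2.65 and 2.66 on the controls. Ptcra read 2.67 on combined 1, 7.66 on control 1 and 2.42 to 2.55 on the other 10 arrays, so it stood out on control 1 alone.

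**Figure D1:**
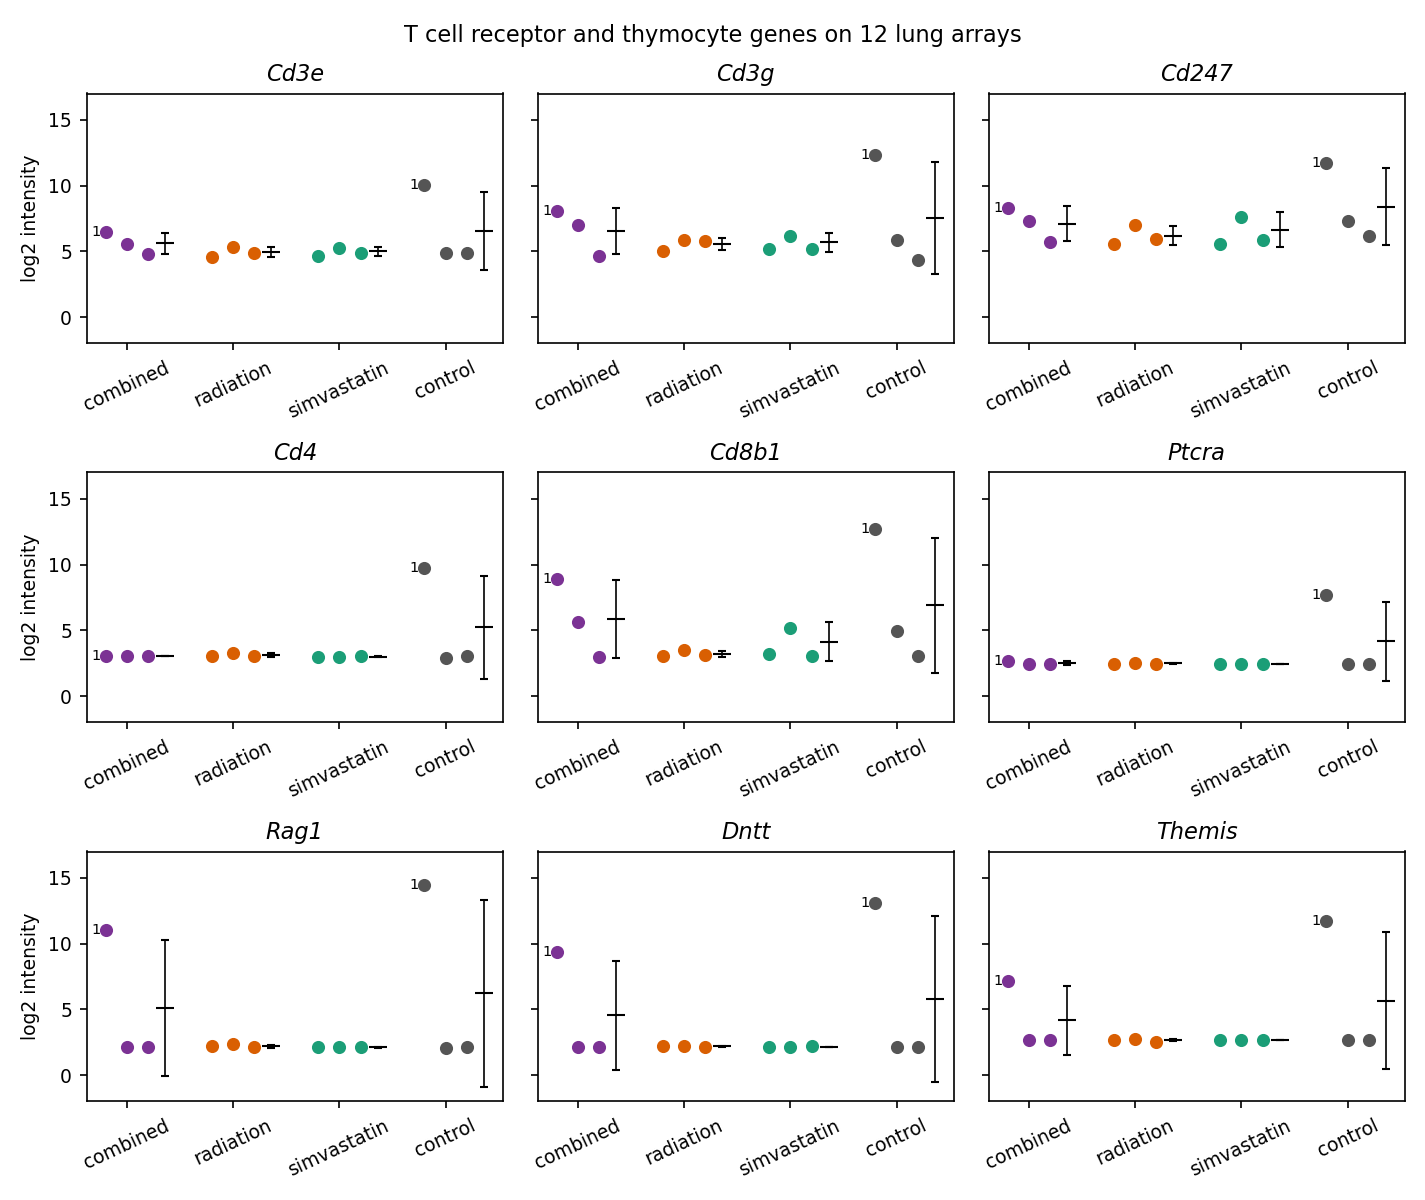
Log2 intensity (vertical axis) of the 9 measured genes on every array, by group; points are replicates 1, 2 and 3 from left to right, the numeral marks combined 1 and control 1, and the horizontal mark and bar are the group mean and SD (n = 3 samples, n = 2 for simvastatin, where replicates 1 and 3 count as 1). Control 1 is highest for all 9 genes, and Rag1 reads 11.05 on combined 1, 14.42 on control 1 and at most 2.33 elsewhere.

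Cd3e, Cd3g, Cd247 and Cd8b1 were also highest on control 1 and second highest on combined 1. They read above the median of all values, 4.84, on 9, 10, 12 and 5 of the 12 arrays. Cd3e read 6.45, 5.57 and 4.80 on the combined arrays, 4.58, 5.33 and 4.85 on the radiation arrays and 4.66, 5.22 and 4.86 on the simvastatin arrays. Its controls read 10.01, 4.88 and 4.87. Without control 1, all groups of Cd3e overlapped between 4.58 and 5.57, with combined 1 above them. Cd3g read 8.08, 6.97 and 4.66 on the combined arrays, 5.0, 5.85 and 5.79 on the radiation arrays and 5.19, 6.18 and 5.20 on the simvastatin arrays. Its controls read 12.35, 5.89 and 4.37, so the control group held both the highest and the lowest value of this gene.

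Cd247, the zeta chain, read 8.29, 7.33 and 5.68 on the combined arrays, 5.58, 6.97 and 5.96 on the radiation arrays and 5.55, 7.59 and 5.85 on the simvastatin arrays, against 11.73, 7.28 and 6.17 on the controls. It was the only measured gene above the median of all values, 4.84, on all 12 arrays. Cd8b1 read 8.90, 5.62 and 3.01 on the combined arrays, 3.08, 3.49 and 3.12 on the radiation arrays and 3.21, 5.18 and 3.02 on the simvastatin arrays. Its controls read 12.74, 4.95 and 3.03, which again covered nearly the whole range of the series. Cd4 read 3.02 on combined 1, 9.74 on control 1 and 2.94 to 3.30 on the other 10 arrays.

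Probe sets of a gene did not always agree. The members had 18 probe sets, of which 17 were highest on control 1. The exception was a probe set of Cd247 that read 1.98 to 2.09 on all arrays, and another of its 4 reached only 4.24 on control 1. A second probe set of Cd4, not used because its mean was lower, read 5.61 on combined 1, 11.16 on control 1 and 1.91 to 2.08 on the other 10 arrays. With that probe set Cd4 had the same 2 raised arrays as Rag1. Of the 3 probe sets of Dntt and the 4 of Themis, 2 each were raised on combined 1.

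Combined 1 and control 1 were each set against the median of the other 10 arrays for every gene, as a description of these 2 arrays. The 2 arrays were picked from the values of the measured genes themselves, so the ranks of these genes follow in part from that choice. On combined 1 the elevations were 8.91 for Rag1 (rank 6 of 18193 genes), 7.19 for Dntt (rank 10), 5.73 for Cd8b1 and 4.50 for Themis. These 4 genes stood over 4 log2 units, which 79 genes (0.434%) did, and Cd3g was at 2.59, Cd247 at 2.23, Cd3e at 1.58 and Ptcra at 0.23. On control 1 Rag1 had the largest elevation of all genes, 12.28, followed among the members by Dntt at 10.94 (rank 6), Cd8b1 at 9.57 (rank 14) and Themis at 9.03 (rank 19). Cd3g was at 6.85, Cd4 at 6.71, Cd247 at 5.66, Ptcra at 5.21 and Cd3e at 5.14. All 9 stood over 4 units there, as 251 genes (1.38%) did, while the median over all genes was -0.039. The 4 genes over 4 units on both arrays read 3.37 to 4.52 lower on combined 1 than on control 1.

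**Figure D2:**
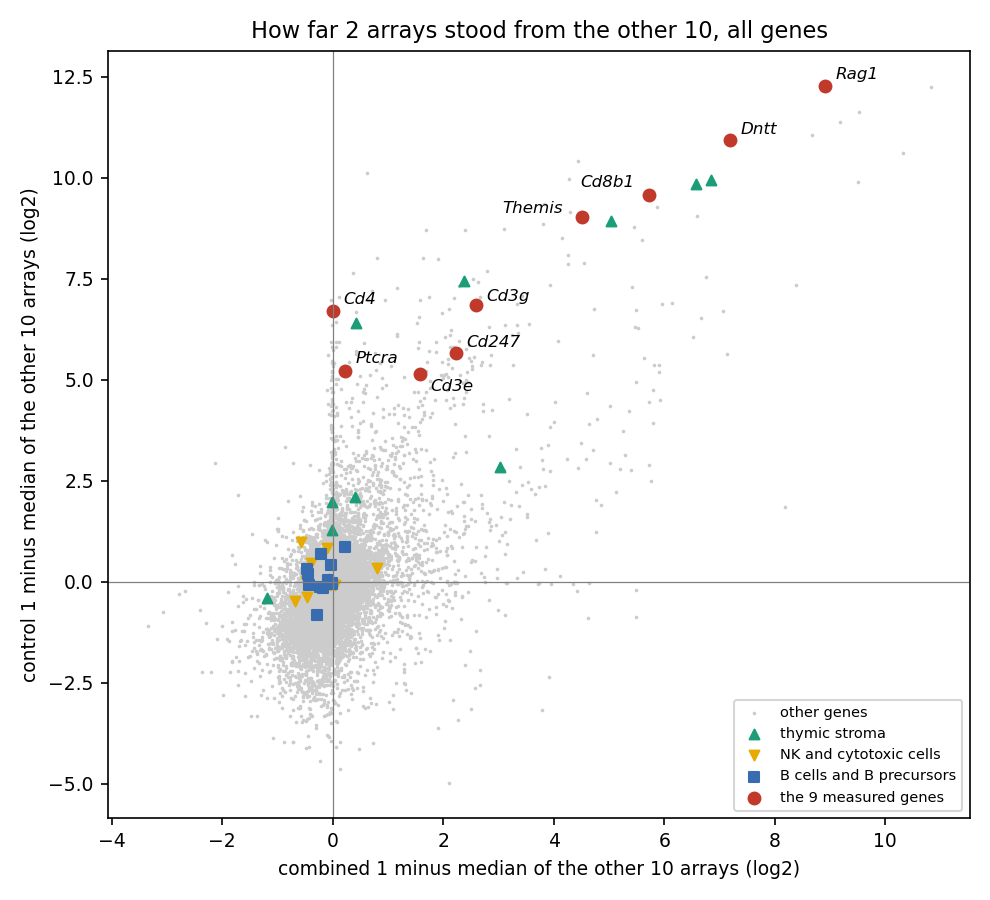
Elevation of every gene on combined 1 (horizontal axis) and on control 1 (vertical axis), each in log2 units over the median of the other 10 arrays; red points are the 9 measured genes, and triangles and squares are marker lists. Rag1 lies at 8.91 for combined 1 and 12.28 for control 1. Cd4, by the probe set used, lies near 0 for combined 1 but at 6.71 for control 1. The B cell and the NK and cytotoxic genes lie close to 0 on both axes.

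Other genes of the pathway and of neighbouring cell types were read from lists written by hand. Of 18 measured genes of the T cell receptor complex and its signalling, 17 were highest on control 1, and 12 of the 18 were second highest on combined 1. Cd3d, another CD3 chain, read 9.51 on combined 1, 13.20 on control 1 and 6.70 to 8.62 elsewhere. Cd8a, the CD8 alpha chain, read 9.13 on combined 1, 12.79 on control 1 and 5.47 to 5.93 elsewhere. Zap70, the kinase that docks on the zeta chain, reached 3.64 and 6.81 on those arrays. Of 20 measured thymocyte development genes, 16 were highest on control 1 and 11 were second highest on combined 1. Rag2, the partner of Rag1, read 6.96 on combined 1, 11.33 on control 1 and 2.75 to 3.27 elsewhere. In the same list Hes1, a Notch target gene named after its values were seen, stood 1.21 below the median of the other 10 arrays on control 1.

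Markers of thymic stroma, the epithelium in which thymocytes mature, were uneven. Of 11 measured, 8 were highest on control 1 and 5 were second highest on combined 1, where their median elevation was 0.43. The named genes include the most raised ones, and Dll4, a Notch ligand, had elevations of -1.19 on combined 1 and -0.39 on control 1. Prss16, a protease of cortical thymic epithelium, read 9.24 on combined 1, 12.33 on control 1 and at most 3.55 elsewhere. Ccl25, a chemokine that draws thymocyte precursors, read 9.46 on combined 1, 13.36 on control 1 and at most 5.36 elsewhere. Psmb11, the thymus proteasome subunit, read 4.75 on combined 1 and 9.82 on control 1, with 2.33 to 2.46 on the rest. Foxn1, the master regulator of thymic epithelium, reached 4.12 on control 1 and was 2.11 to 2.24 on all others, combined 1 included.

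Lists of other lymphocytes stayed close to their means on these 2 arrays. The mean deviation of 11 NK and cytotoxic genes from their 12-array means was -0.20 on combined 1 and 0.12 on control 1, and that of 12 B cell and B precursor genes was -0.17 and 0.12, against 2.59 and 6.87 for the 9 measured genes. Ncr1, an NK cell receptor gene, read 2.23 to 2.93 on all arrays. Of the same list, Prf1, Eomes, Tbx21 and Xcl1 also never read above the median of all values, 4.84. Nor did Pax5, Vpreb1, Vpreb3 and Igll1 of the B cell list, and both list means include these low genes. The recirculating T cell and lymph node list, with 10 genes, stood at 0.69 on combined 1 and 0.48 on control 1. Its median elevation over the other 10 arrays was only 0.097 and 0.18, and 2 of its 10 genes were highest on control 1. Glycam1 had the largest elevations in this list, 6.15 and 6.89, while Klf2 stood at 0.17 and -1.80 and S1pr1 at -0.53 and -1.27. Proliferation genes were raised, by 1.13 on combined 1 and 3.82 on control 1, with Mki67, a marker of dividing cells, at 10.95 and 12.97 there and 7.31 to 9.97 elsewhere. Lung epithelial and endothelial genes were lower on control 1, by 0.93 below their 12-array means, and stood at -0.14 on combined 1. In whole tissue, fewer cells of a type and less RNA per cell cannot be told apart.

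Markers of other chest tissues were also uneven over arrays, and their part in the results was not tested. Skeletal muscle genes stood at 3.60 on combined 1 and 3.17 on control 1, squamous epithelium genes at 2.43 and 5.43, and brown fat genes at 3.05 and 2.65. These lists were raised on further arrays where Rag1 was at the low end. Krt4, a squamous keratin, read 15.50 on combined 2, 13.05 on radiation 1 and 15.18 on control 2, and on those arrays Rag1 was between 2.09 and 2.18. Ucp1, the uncoupling protein of brown fat, read 12.28 on control 3, where Rag1 was 2.15. Over the median of the other 10 arrays, Krt4 and Ucp1 stood at 10.82 and 10.31 on combined 1, above Rag1 at 8.91. On control 1 they stood at 12.23 and 10.62, against 12.28 for Rag1.

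**Figure D3:**
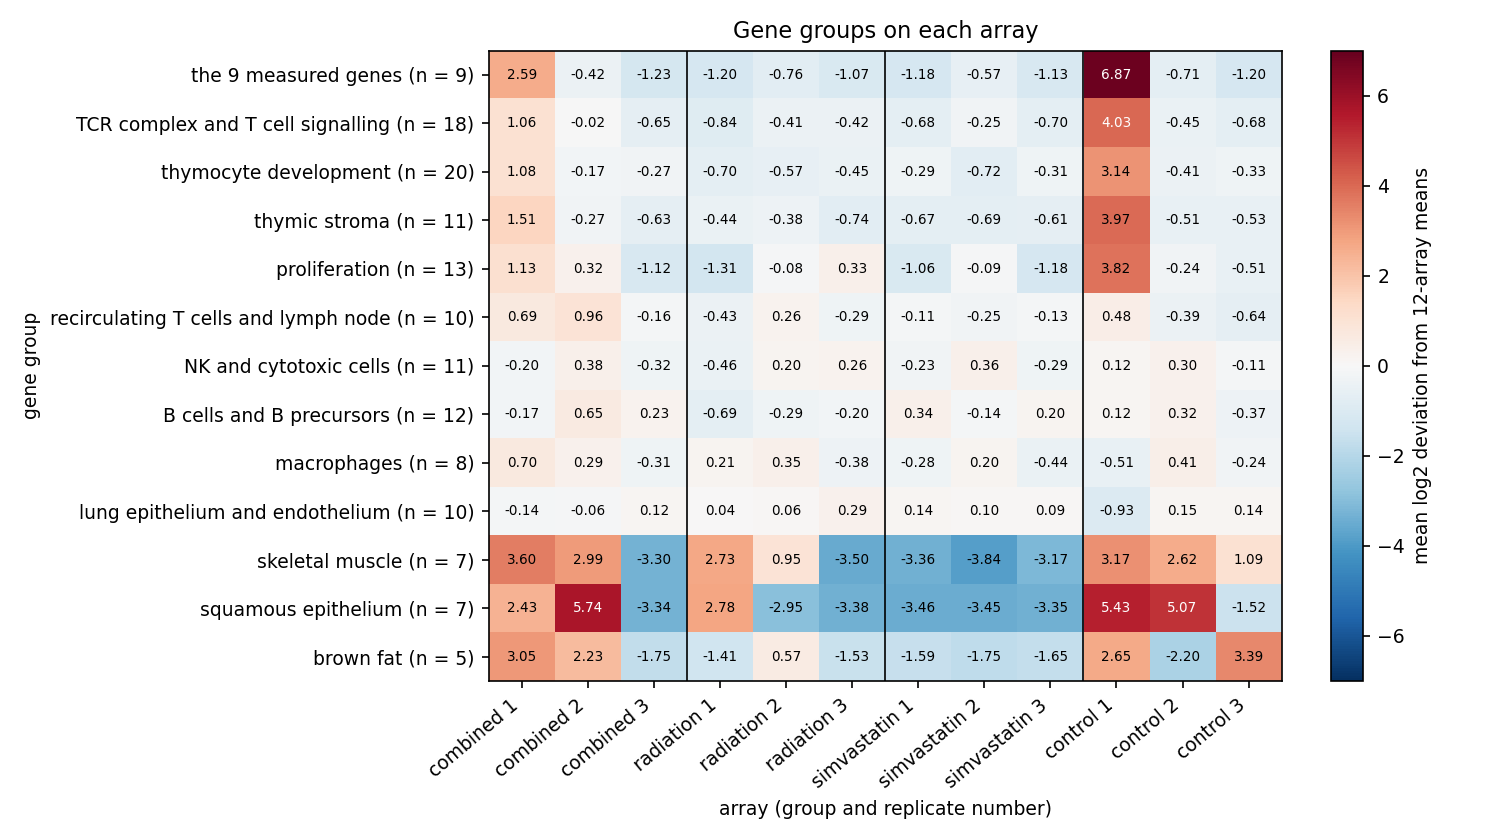
Mean log2 deviation of each gene group from its own 12-array means (colour and printed number) on each array (columns, by group and replicate), with the number of genes per group in brackets. The 9 measured genes, the T cell receptor, thymocyte and thymic stroma lists and the proliferation list are highest on control 1 and raised on combined 1, while the NK and B cell lists stay within 0.69 of 0 on all arrays.

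The genes whose profile was most like the mean of the 9, by Pearson correlation over 11 samples and among 12117 other genes that passed the median of all values on at least 1 array, were Il21r, Rhoh, Skap1, Camk4, Rag2, Cd8a, Lat, Sh2d1a, E2f8 and Ckap2l, with r between 0.989 and 0.995. Il21r read 4.79 on combined 1, 7.52 on control 1 and 2.18 to 2.43 elsewhere. Camk4 read 6.09 on combined 1, 11.14 on control 1 and 2.26 to 2.45 elsewhere. An r above 0.9 was reached by 286 genes. These values share the same 2 high arrays and are given as a description.

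For combined minus control, which sets both treatments against none, all 9 genes lay below 0 with a median of -1.25, beside 0.0045 over all genes. Over all genes 7950 of 18193 lay below 0. Rag1 averaged 5.11 ± 5.15 (SD, n = 3) in the combined group and 6.22 ± 7.10 (SD, n = 3) in controls, a difference of -1.11 ± 3.35 (SE). Cd4 had the largest ratio of difference to error, at -2.21 ± 1.49 (SE). By limma with Benjamini-Hochberg adjustment 0 of 9 genes passed 0.05, where 0% of all genes did (lowest adjusted p over all genes 1), and at an unadjusted p under 0.05 there were 0 of 9, where 2.16% of all genes stood. Without control 1 the sign changed for 9 of 9 genes and the median was 1.44, with Rag1 at 2.99 ± 2.30 (SE), Cd8b1 at 1.85 ± 1.47 and Cd3g at 1.44 ± 0.93. Without control 1 and combined 1 together the median was 0.016, and Rag1 was at 0.016 ± 0.067.

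Radiation minus control asked what 25 Gy changed. All 9 genes again lay below 0, as did 5460 of all 18193 genes, with a median of -2.22 beside 0.064 over all genes. The mean of Rag1 was 2.21 ± 0.11 (SD, n = 3) in the radiation group and 6.22 ± 7.10 among controls, which gives -4.01 ± 3.35 (SE). For Cd8b1 the means were 3.23 ± 0.23 with radiation and 6.91 ± 5.14 in controls, and the difference was -3.68 ± 2.31. For Cd247 they were 6.17 ± 0.72 with radiation and 8.39 ± 2.94 in controls, and the difference was -2.22 ± 1.33. For Rag1, Cd8b1 and Cd247 the difference was smaller in size than the SD of the controls. By limma 0 of 9 passed (adjusted p 0.441 to 0.553), where 0% of all genes did. At an unadjusted p under 0.05 there were 0 of 9, against 4.29% of all genes.

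Control 1 carried the radiation difference. Without it the median was 0.046, 6 of 9 genes lay above 0, and Rag1 was at 0.085 ± 2.30 (SE). Without control 1 and combined 1 together the estimate for Rag1 was the same and its SE was 0.061. Cd8b1 was then at -0.76 ± 0.92 and Cd247 at -0.55 ± 0.77, the only 2 genes more than 0.1 below 0, and for both control 2 read higher than control 3. The lowest adjusted p of the 9 genes was then 0.824 by limma.

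Simvastatin minus control gave the same picture. All 9 genes lay below 0, as did 7981 of all 18193 genes, with a median of -2.22 beside 0.0040 over all genes. Dntt averaged 2.15 ± 0.02 (SD, n = 2) with simvastatin and 5.80 ± 6.32 (SD, n = 3) in controls, a difference of -3.65 ± 3.23 (SE). By limma 0 of 9 passed (adjusted p of 1), where 0% of all genes did, and 0 of 9 had an unadjusted p under 0.05, against 1.39% of all genes. Without control 1 the median was 0.0043, with all 9 genes between -0.080 and 0.56, and Cd3g at the upper end at 0.56 ± 1.02. These 3 comparisons share the control arrays, so the values are not independent of each other.

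Combined minus radiation sets irradiated lungs with the drug against irradiated lungs without it. Of the 9 genes 8 lay above 0, with a median of 1.02 beside -0.067 over all genes, of which 13210 of 18193 lay below 0. Cd4, by the probe set used, was at -0.11 ± 1.49 (SE). Its second probe set, not used, read 5.61, 1.99 and 1.95 on the combined arrays and 1.96, 2.085 and 1.93 on the radiation arrays. The Rag1 means were 5.11 ± 5.15 with both treatments and 2.21 ± 0.11 with radiation alone, which gives 2.90 ± 3.35. The Cd8b1 means were 5.84 ± 2.95 with both and 3.23 ± 0.23 with radiation alone, which gives 2.61 ± 2.31. By limma 0 of 9 passed (adjusted p 0.585 to 0.992), where 0% of all genes did, and 0 of 9 had an unadjusted p under 0.05, against 4% of all genes. Without combined 1 the median was 0.0090, and 5 of 9 genes lay above 0; Cd4, Rag1, Dntt and Ptcra lay below it, at -0.11, -0.069, -0.035 and -0.042. Without combined 1 and control 1 together the differences were the same, with Cd8b1 at 1.08 ± 0.92 (SE), Cd247 at 0.33 ± 0.77, Cd3g at 0.27 ± 0.77 and Cd3e at 0.26 ± 0.36. The lowest adjusted p of the 9 genes was then 0.721 by limma.

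**Figure D4:**
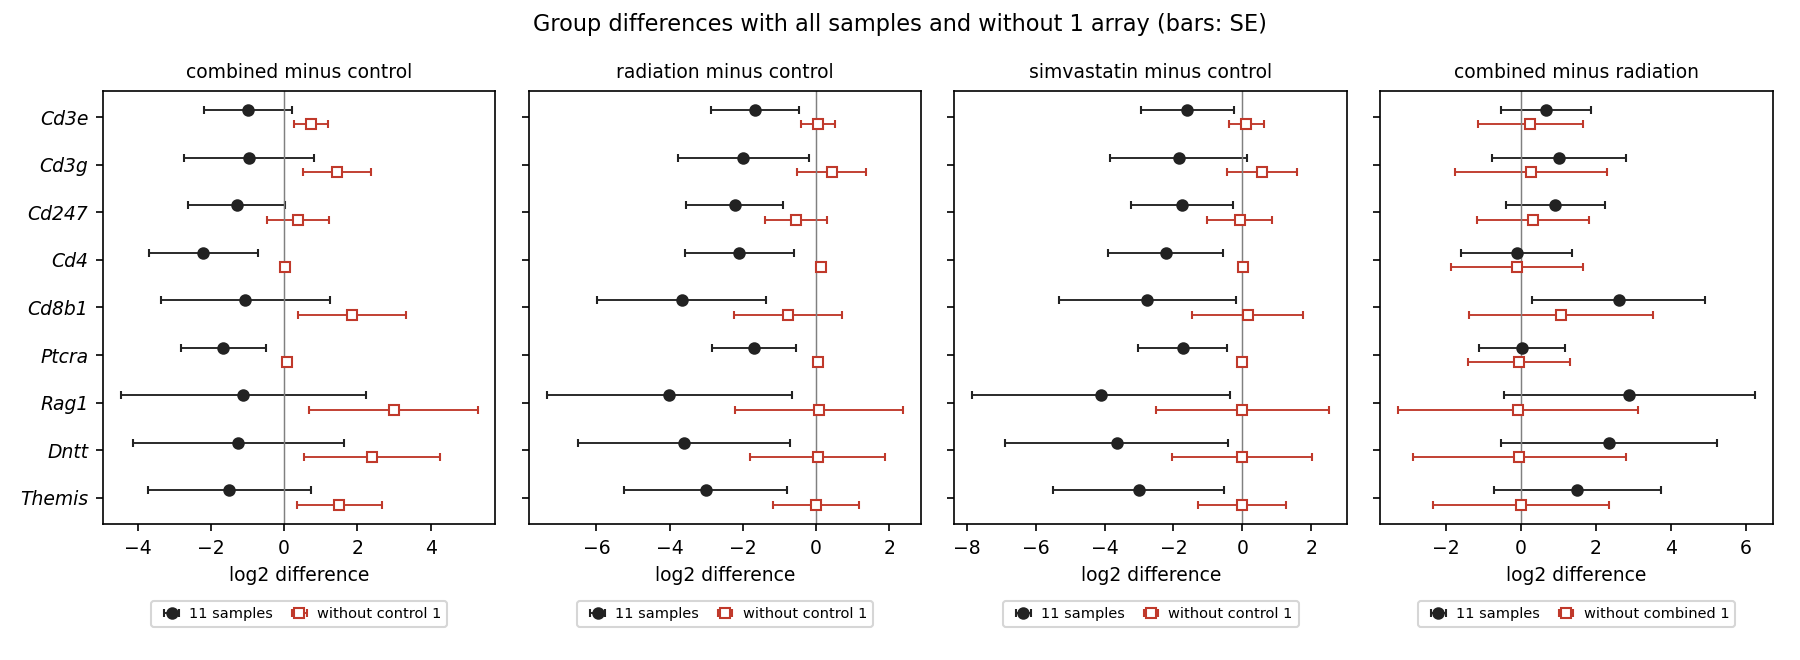
Log2 difference (horizontal axis) of each measured gene in 4 comparisons, with 11 samples (filled circles) and without control 1 or combined 1 (open squares); bars are the SE of the fit. Without control 1 the Rag1 difference moves to 2.99 in combined minus control, against -1.11 with it, and to 0.085 in radiation minus control, against -4.01.

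Combined minus simvastatin, the difference with radiation among lungs given the drug, lay above 0 for 9 of 9 genes. The median was 0.88 beside -0.00033 over all genes, of which 9238 of 18193 lay below 0. By limma 0 of 9 passed (adjusted p of 1), where 0% of all genes did, and 0 of 9 had an unadjusted p under 0.05, against 1.06% of all genes. Without combined 1 the median was 0.011 and the genes ran from -0.14 for Cd247 to 0.19 for Cd3e. Combined 3, in that comparison, was near-identical to simvastatin 1 and simvastatin 3. The interaction of radiation with simvastatin, the test of whether the radiation difference was the same with and without the drug, had a median of 2.87 and gave an adjusted p of 0.69 to 0.691 by limma for the 9 genes. For this test too 0 of 9 passed, where 0% of all genes did, and 0 of 9 had an unadjusted p under 0.05, against 2.35%. Without control 1 and combined 1 its median was -0.034.

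The wider lists differed in how far control 1 set their medians. For radiation minus control the T cell receptor and signalling list had 18 of 18 genes below 0 and a median of -1.68, the thymocyte list 19 of 20 and -1.13, the thymic stroma list 10 of 11 and -1.58, and the proliferation list 13 of 13 and -1.41. In this comparison 5460 of all 18193 genes lay below 0, and in each of these lists 0 genes passed by limma. Without control 1 their medians were 0.044, -0.15, 0.042 and 0.030. The NK and cytotoxic list had a median of -0.024 with control 1 and -0.095 without it, and the B cell list -0.45 and -0.38. Medians of the skeletal muscle (-2.69), squamous epithelium (-3.71) and brown fat (-1.47) lists stayed below 0 without control 1, at -2.40, -2.63 and -1.39. The macrophage, lung and recirculating T cell lists had medians above 0, at 0.35, 0.31 and 0.076, which without control 1 were 0.10, -0.046 and 0.11.

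The 10 arrays other than control 1 and combined 1 still differed in Cd3e, Cd3g, Cd247 and Cd8b1. Cd3g spanned 2.60 log2 units over them, Cd8b1 2.61, Cd247 2.03 and Cd3e 0.99, while Rag1, Dntt, Ptcra, Themis and Cd4 spanned at most 0.36. On the 4 arrays that carry the replicate number 2, Cd247 read 6.97 to 7.59, against 5.55 to 6.17 on the other 6. Cd8b1 read 3.49 to 5.62 on the arrays numbered 2 and 3.01 to 3.21 on the other 6. Cd3g read 5.85 to 6.97 against 4.37 to 5.79, and Cd3e 4.88 to 5.57 against 4.58 to 4.87. Cd3d, which is not a member, read 7.44 to 8.62 against 6.70 to 7.35. Other T cell genes outside the members did not separate in this way. Cd8a read 5.47 to 5.93 against 5.62 to 5.92, and Lat 6.99 to 7.95 against 6.84 to 7.43. List means overlapped between the arrays numbered 2 and the other 6. The NK and cytotoxic list stood at 0.20 to 0.38 against -0.46 to 0.26, and the thymic stroma list at -0.69 to -0.27 against -0.74 to -0.44. The T cell receptor and signalling list stood at -0.45 to -0.016 against -0.84 to -0.42, and the thymocyte list at -0.72 to -0.17 against -0.70 to -0.27. For the B cell list the ranges were -0.29 to 0.65 against -0.69 to 0.34, and for proliferation -0.24 to 0.315 against -1.31 to 0.33. This grouping by replicate number was noticed after the values were seen and has no test, and 2 of the 6 other arrays count as 1 sample with simvastatin 1 and simvastatin 3.

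**Figure D5:**
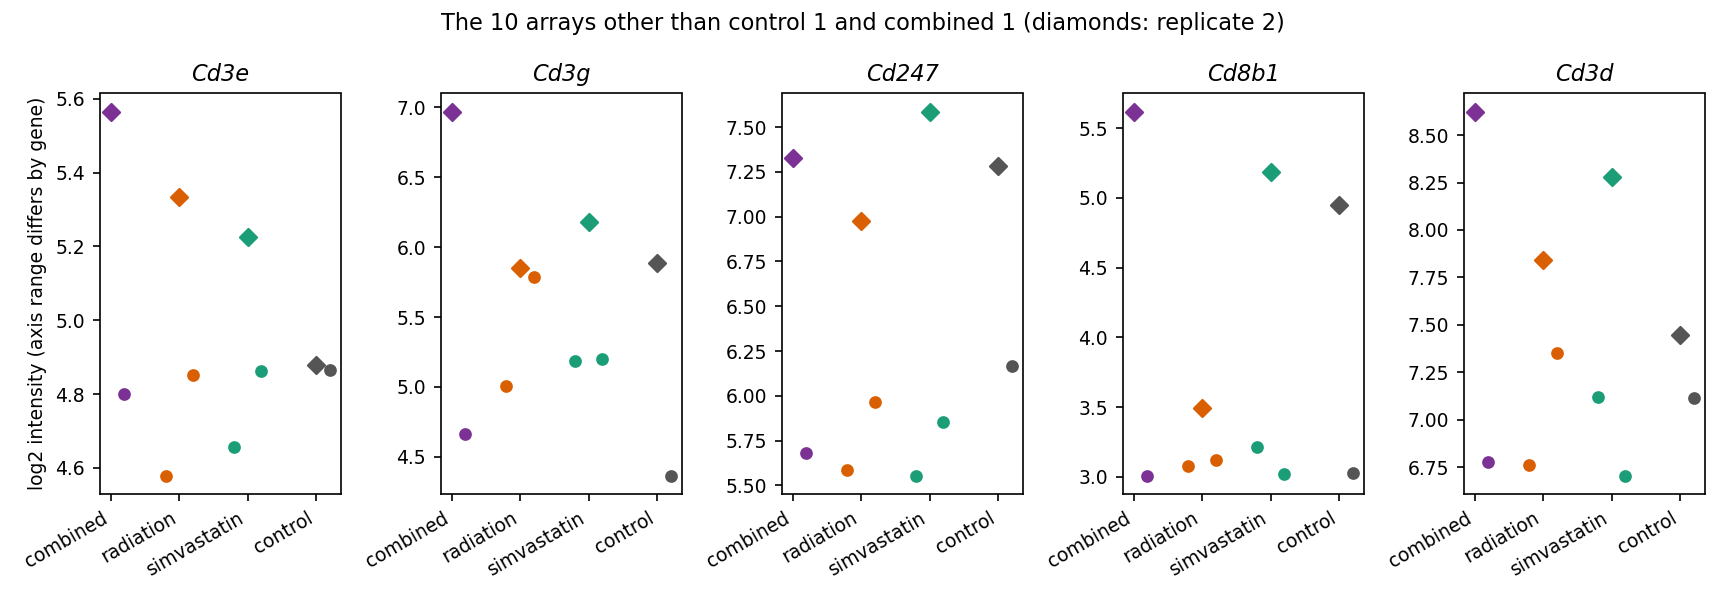
Log2 intensity (vertical axis, range set per gene) of Cd3e, Cd3g, Cd247, Cd8b1 and Cd3d on the 10 arrays left without control 1 and combined 1, by group; diamonds are replicate 2 and circles replicates 1 and 3. For each of the 5 genes the diamonds lie above all circles, for Cd247 at 6.97 to 7.59 against 5.55 to 6.17. Cd8a and Lat, not shown, overlapped between replicate 2 and the other replicates.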

How the data were processed

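The deposited values are log2 intensities per probe set of an Affymetrix mouse array; the submitters' processing notes name MAS5 and GCRMA, with no version or role. Per the labels' protocols, Trizol-extracted total RNA was labelled with biotin. The table held 45101 probe sets with values from 0.817 to 16.3, and array medians lay between 4.42 and 5.12. After 64 Affymetrix controls were left out, 34945 probe sets had 1 gene symbol, 932 several and 9160 none; symbols were updated through Entrez identifiers for 34741. The probe set of highest mean stood for its gene. No filter on low values was applied, because the filter of the earlier processing kept 4 of 9 measured members. Group means were fitted with limma 3.58.1 (R 4.3.3) to 11 samples (7 residual degrees of freedom) with eBayes and a trend, two-sided, with Benjamini-Hochberg adjustment over 18193 genes. The fit was tested on simulated data. Values in text are arrays, errors SD of samples or SE of the fit. Nothing in the labels says that arrays come from separate animals, so p-values reflect only the spread among them, which may be technical, and the number of arrays limits the precision. The array annotation carries no coordinates. Members and lists were chosen with earlier results of these data known, and named genes are the members, the 10 closest profiles, listed markers and Cdkn1a; the rule also took the 2 genes of lowest p per comparison, none of which passed the threshold or is a member, and they are not described. Other settings are given in the closing section.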

Additional observations from a re-analysis of the deposited data

How the results depend on the processing

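Member differences were recomputed under 23 other settings. Of 1212 such values, 1204 stayed on the same side of the threshold and 8 passed it, all with array weights. Default array weights did not converge and gave radiation 1 a weight of 101 against 0.168 to 2.48 elsewhere; with them 8490 genes passed for radiation minus control and 10118 for combined minus radiation, with Cd247 (-1.86, adjusted p = 0.0326 by limma) in the first and Cd3e, Cd3g, Cd247 and Cd8b1 (1.21 to 3.42) in the second. The member median for combined minus control was then 0.91, against -1.25 unweighted. Gene-by-gene weights, chosen after seeing the data, gave radiation 1 a weight of 10.3 against 0.174 and 0.348 for radiation 2 and radiation 3. The radiation mean thus rested mostly on 1 array. With these weights 6216 and 9187 genes passed. Cd3g, Cd247 and Cd8b1 (2.05, 1.85 and 3.30, adjusted p 0.0374, 0.0205 and 0.0298 by limma) were among those for combined minus radiation. The member median for combined minus control was then 0.68. Without the arrays labelled control 3, combined 3 and simvastatin 2 the gene counts were 3 for radiation minus control, 4 for combined minus control, 5 for combined minus radiation, 5 for combined minus simvastatin and 2 for the interaction, none of them members, and the interaction's member median was 5.90. Without control 1 and combined 1, also chosen after seeing the data, that median was -0.034. Leaving out 1 sample at a time gave 0 to 8 genes for radiation minus control, 0 to 9 for combined minus control, 0 to 19 for simvastatin minus control, 0 to 10 for combined minus radiation, 0 to 23 for combined minus simvastatin and 0 to 16 for the interaction. The highest counts came without radiation 3 (radiation minus control), without combined 3 (combined minus control and combined minus radiation) and without the mean of simvastatin 1 and 3 (the other 3), and the members' lowest adjusted p by limma over these fits was 0.291. The member median then ran from -3.00 to 1.44 for combined minus control. Deviations of same-numbered arrays correlated at -0.232 to 0.398 over all genes, over 0.1 in 8 of 18 pairs, so the numbers were not taken to pair the samples. With the replicate number as a replicate block on 12 arrays, 0 genes passed and the member median for radiation minus control was -2.22. The filter on low values kept 11606 genes and 4 members. Median centring, quantile normalization, a floor at the 25th percentile, no trend, 12 arrays as samples and the mean of all probe sets changed no count and left every member median on its side of 0.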
